A study of Homo sapiens with 6 samples.

Results

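The transcripts described here are those of NRF2, encoded by NFE2L2, of its inhibitor KEAP1, and of 7 of its best known target genes: HMOX1, NQO1, GCLC, GCLM, TXNRD1, SRXN1 and OSGIN1. These 9 genes were chosen by name, and each was found by its symbol on 1 row of a series table of 20356 genes. All 9 passed the filter on low values, under which 12107 genes averaged 1 FPKM or more in at least 1 group. FPKM is the number of fragments per kilobase of transcript, scaled to the mapped fragments of the library, so levels of different genes can be set side by side.

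RNA was sequenced from H1975, a human line of EGFR-mutant lung adenocarcinoma. One group comprised 3 libraries of parental H1975 cells in RPMI-1640 medium with 10% FBS, and the other 3 libraries of H1975 OR, a derivative resistant to osimertinib that was kept in 1 µM of this EGFR inhibitor. The series design calls the libraries of each group biological replicates. With a single resistant derivative, resistance, the presence of the drug and other differences between the lines cannot be told apart. The p-values measure only the spread between these samples, which may be technical.

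NRF2 is a basic leucine zipper transcription factor of the cap'n'collar family. In unstressed cells KEAP1, an adaptor of the CUL3 ubiquitin ligase, holds it and marks it for destruction by the proteasome. Electrophiles and oxidants modify cysteines of KEAP1, NRF2 then escapes degradation, pairs with small MAF proteins and binds antioxidant response elements in genes of glutathione synthesis, thiol reduction, quinone detoxification and heme breakdown. BACH1 is a heme-sensing repressor that competes for the same elements, at HMOX1 above all. NRF2 is controlled mainly as a protein, which RNA levels do not show, and mutations of KEAP1 or NFE2L2 are known in lung cancer.

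The core of the antioxidant response element, TGACNNNGC, was searched on both strands in the 250 bases before each annotated transcript start, in RefSeq promoter sequences of GRCh38.p14. Of the members, 8 had at least 1 such window (all but HMOX1), with 11 windows in all, and 3 members had a match. Over all RefSeq windows the share with a match was 10.9%, and over genes 13.2%. The matching sites are shown because they let the member that rose be compared with members that fell. Each is printed 5′ to 3′ on the strand of its gene, with the match in capitals and 10 bases on each side.
KEAP1, chr19:10502784-10502812, minus strand: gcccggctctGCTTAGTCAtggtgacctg
KEAP1, chr19:10502807-10502835, minus strand: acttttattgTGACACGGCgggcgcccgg
GCLM, chr1:93909446-93909474, minus strand: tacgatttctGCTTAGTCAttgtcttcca
TXNRD1, chr12:104286920-104286948, plus strand: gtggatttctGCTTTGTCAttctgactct
TXNRD1, chr12:104215670-104215698, plus strand: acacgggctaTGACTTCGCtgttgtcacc

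In GCTTAGTCA and GCTTTGTCA the core reads on the strand opposite to the gene. The first KEAP1 site and the GCLM site shared a run of 13 bases, tctGCTTAGTCAt, and began 31 and 34 bases before their transcript starts. KEAP1 and GCLM differed in direction in these cells, as described below. A match of these letters is a description of the sequence and not evidence of binding. The windows of NFE2L2, NQO1, GCLC, SRXN1 and OSGIN1 did not hold the letters, which says nothing of elements farther away.

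Resistant cells held less RNA of the factor and more of its inhibitor. In replicate order, the FPKM of NFE2L2 (gene ID ENSG00000116044, GRCh37 chromosome 2:178092323-178257425) were 41.3, 41.5 and 37.7 for parental cells against 29.2, 28.3 and 31.2 for resistant cells. Every resistant library lay below every parental one, and the mean fell from 40.2 ± 2.16 to 29.6 ± 1.52 FPKM (SD, n = 3 per group). The difference in log2(FPKM + 1), resistant minus parental, was -0.43 ± 0.0653 (SE, limma adjusted p = 6.0e-05).

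KEAP1 (ENSG00000079999, 19:10596796-10614417) went the other way. Its parental FPKM were 31.6, 33.1 and 28.9, and its resistant FPKM 48.5, 51.2 and 44.8. The groups did not overlap, and the mean rose from 31.2 ± 2.15 to 48.2 ± 3.22 FPKM, a log2 difference of 0.61 ± 0.0714 (limma adjusted p = 5.5e-06). Within a library, the ratio of NFE2L2 to KEAP1 in FPKM was 1.31, 1.25 and 1.304 in parental cells and 0.603, 0.552 and 0.698 in resistant cells. Parental cells thus had more NFE2L2 than KEAP1 RNA in each library, and resistant cells had less in each. The log2 ratio differed by -1.07 between the groups (exact two-sided permutation test, p = 0.1, the smallest that 3 against 3 libraries allow).

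**Figure D1:**
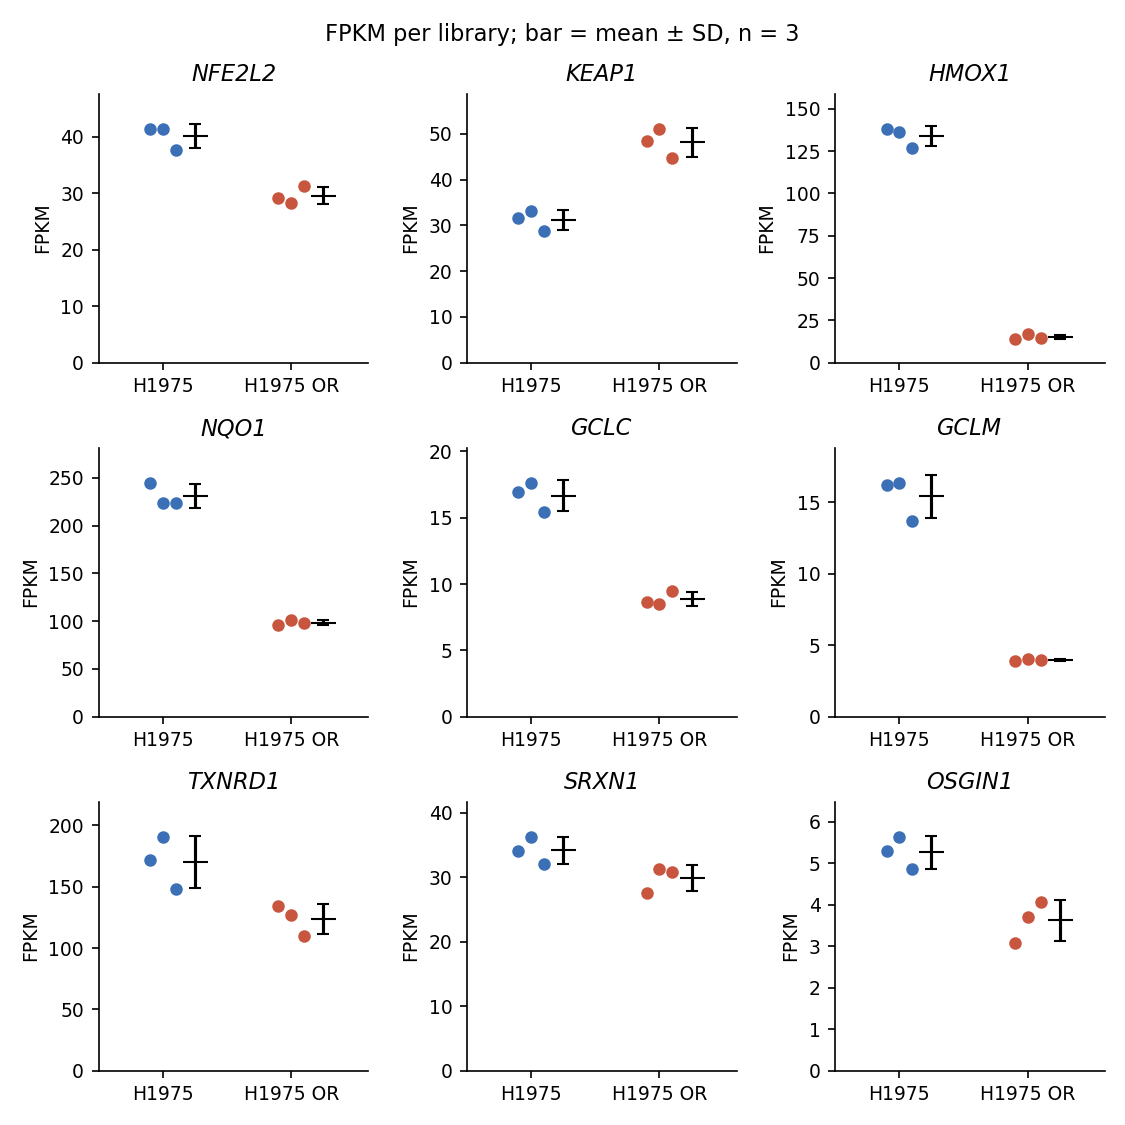
FPKM (vertical axes, from 0) of each gene in the 3 H1975 libraries (blue points) and the 3 H1975 OR libraries (red points), with mean and SD beside them. KEAP1 is higher in each resistant library, the other 8 genes are lower in each, and HMOX1 and GCLM are the most reduced.

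Of the 9 genes 1 passed an FDR of 0.05 as higher, KEAP1, and 8 as lower. Among all tested genes 39.9% were called higher and 38.1% lower, and their median log2 difference was 0.01, against -0.45 over the 9 genes and -0.84 over the 7 targets. A call by itself is common in this comparison, since 78.0% of tested genes passed, so sizes say more than counts. By at least 1 on the log2 scale 3 members fell, HMOX1, GCLM and NQO1, against 9.39% of tested genes, and 0 rose, against 9.95%. The groups did not overlap in any of the 9 genes, which held for 79.8% of tested genes. An earlier analysis of these data had already shown most genes of a longer list of NRF2 targets lower, HMOX1 among them, so the direction is not independent support for that pattern. That longer list is not given here. In the list of other NRF2 targets described below, 7 of 16 tested genes were higher and 8 lower, beside 39.9% and 38.1% of all tested genes.

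The largest decrease was that of HMOX1 (ENSG00000100292, 22:35776354-35790207), heme oxygenase 1, the inducible enzyme that opens heme to biliverdin, iron and carbon monoxide. Its FPKM were 138, 136 and 127 for parental cells against 13.9, 16.7 and 14.7 for resistant cells. The lowest parental library was 110 FPKM above the highest resistant one. The mean was 8.86-fold lower in resistant cells, from 134 ± 6.12 to 15.1 ± 1.41 FPKM, with a log2 difference of -3.07 ± 0.0724 (limma adjusted p = 2.0e-12). Only 0.884% of tested genes had a lower log2 difference.

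NQO1 (ENSG00000181019, 16:69740899-69760854) encodes a quinone reductase that uses NAD(P)H and is the usual marker of NRF2 activity. Its values were 245, 224 and 224 FPKM in parental cells and 95.8, 101 and 98.2 FPKM in resistant cells. It was the most abundant of the 9 transcripts in parental cells, above TXNRD1 with no overlap of their libraries, and was second to TXNRD1 in resistant cells. The mean fell from 231 ± 12.3 to 98.3 ± 2.46 FPKM, a log2 difference of -1.22 ± 0.0630 (limma adjusted p = 2.3e-09). In share of tested genes, 6.56% had a lower log2 difference.

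GCLC and GCLM encode the catalytic and the modifier subunit of glutamate-cysteine ligase, the first and rate-limiting enzyme of glutathione synthesis. The modifier subunit raises the affinity of the catalytic one for glutamate and eases its inhibition by glutathione. GCLC (ENSG00000001084, 6:53362139-53481768) was at 17.0, 17.6 and 15.4 FPKM in parental libraries and 8.67, 8.48 and 9.44 FPKM in resistant ones. All resistant values lay below the parental range, with a log2 difference of -0.84 ± 0.0689 (limma adjusted p = 1.9e-07). GCLM (ENSG00000023909, 1:94350761-94374966) was at 16.2, 16.4 and 13.7 FPKM in parental libraries and 3.87, 4.01 and 3.97 FPKM in resistant ones. Its resistant libraries lay close together, and the log2 difference was -1.73 ± 0.0736 (limma adjusted p = 4.1e-10).

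The subunits therefore fell by different amounts, GCLC 1.88-fold and GCLM 3.91-fold. In parental cells their FPKM were close, with overlapping ranges and a ratio of GCLC to GCLM of 1.05, 1.08 and 1.12. In resistant cells the catalytic subunit's transcript was the more abundant in each library, with ratios of 2.24, 2.12 and 2.38. The log2 ratio differed by 1.05 between the groups (exact two-sided permutation test, p = 0.1, again the smallest possible). The ratio of the proteins was not measured.

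**Figure D2:**
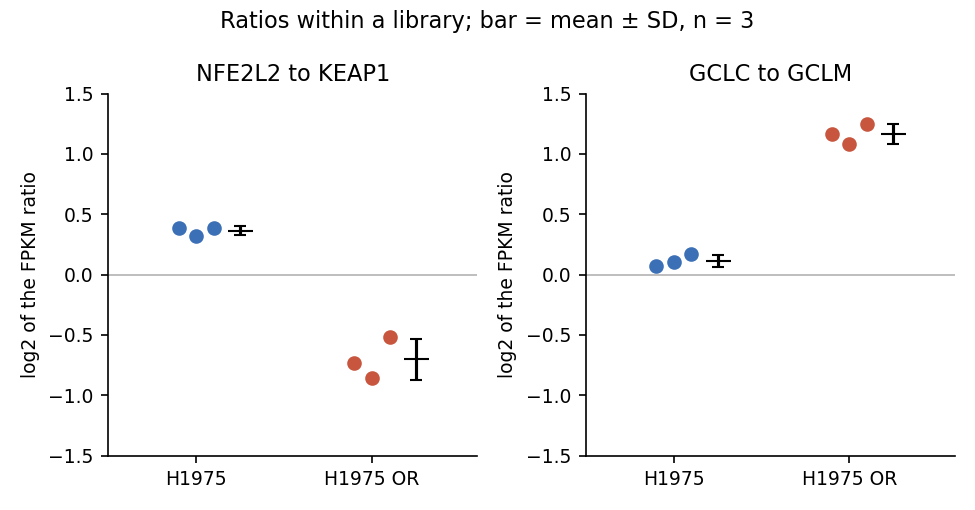
Log2 ratio of FPKM within each library (vertical axis) for NFE2L2 to KEAP1 and for GCLC to GCLM, with the 3 H1975 libraries in blue, the 3 H1975 OR libraries in red, and mean and SD beside them. The first ratio crosses 0 from above to below in resistant cells, and the second moves from near 0 to above 1.

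TXNRD1 and SRXN1 act in thiol reduction. TXNRD1 (ENSG00000198431, 12:104609557-104744061), thioredoxin reductase 1, a selenoprotein that keeps cytosolic thioredoxin reduced, was at 172, 191 and 148 FPKM in parental cells and at 134, 127 and 110 FPKM in resistant cells. The groups lay side by side without overlap, and the spread was wide for these data, with an SD of 12.6% of the mean in parental libraries. Its log2 difference was -0.45 ± 0.09999 (limma adjusted p = 0.0015). TXNRD1 contains the pseudogene RPL18AP3 on its own strand, listed at a mean of 51.1 FPKM in parental and 111 FPKM in resistant cells, and RP11-818F20.5 on the other strand, at 1.17 and 6.17 FPKM. Both were higher in resistant cells, opposite to TXNRD1, and how reads were divided between these overlapping genes is not given in the sources used here, so the value of TXNRD1 is uncertain.

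SRXN1 (ENSG00000271303, 20:627259-634014), sulfiredoxin, which reactivates overoxidized peroxiredoxins, was at 34.1, 36.3 and 32.1 FPKM in parental libraries and 27.5, 31.3 and 30.8 FPKM in resistant ones. Only 0.817 FPKM separated the lowest parental from the highest resistant library. The log2 difference was -0.19 ± 0.0703 (limma adjusted p = 0.027). This call was lost without parental replicate 1 (adjusted p = 0.061), without parental replicate 2 (0.114), without resistant replicate 1 (0.109) and with no filter on low values (0.0565), with the same direction each time.

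OSGIN1 (ENSG00000140961, 16:83981887-83999937), an oxidative stress-induced growth inhibitor, had the lowest level of the 9. It was at 5.31, 5.64 and 4.85 FPKM in parental libraries and 3.09, 3.70 and 4.08 FPKM in resistant ones. The groups were 0.773 FPKM apart at their nearest libraries, and the log2 difference was -0.44 ± 0.0873 (limma adjusted p = 0.00049). Its 5′ part, up to position 83985058, lies within the span of RP11-505K9.4 on the same strand (16:83941738-83985058), listed at 0.689 to 1.28 FPKM over the 6 libraries.

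**Figure D3:**
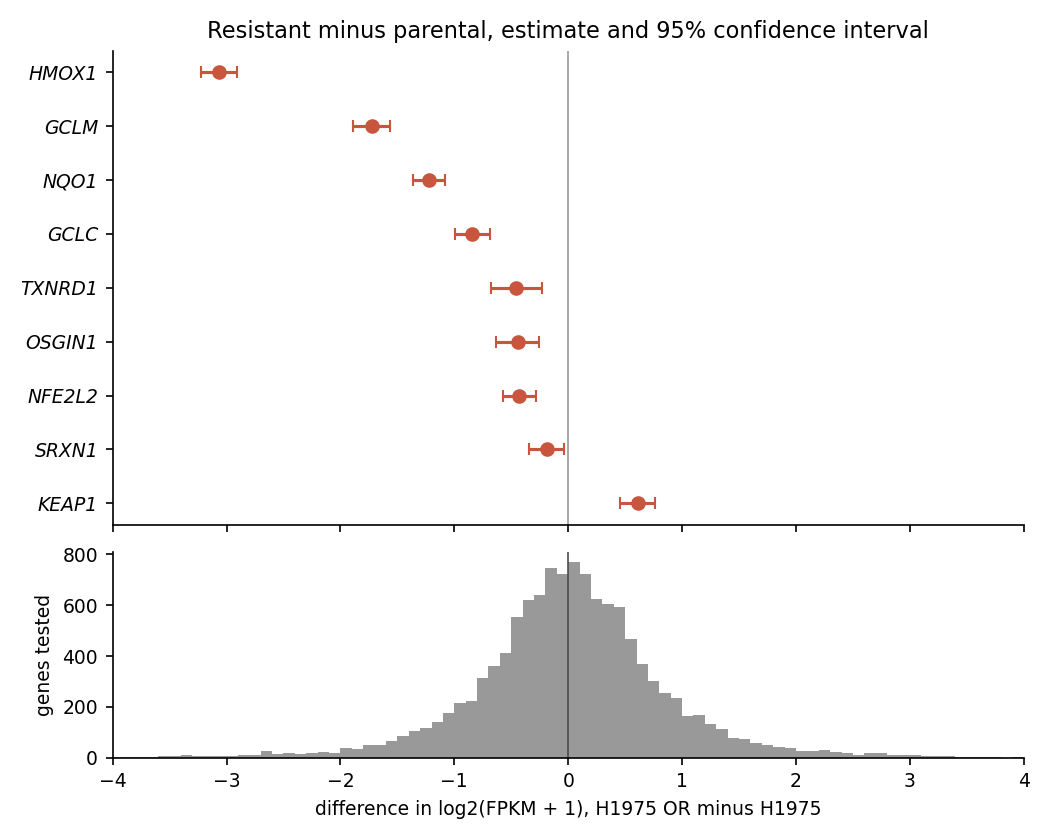
Difference in log2(FPKM + 1), H1975 OR minus H1975, of the 9 genes (points, with 95% confidence intervals from limma) above the number of tested genes at each difference (grey, shown from -4 to 4). HMOX1 at -3.07 lies in the far lower tail, while NFE2L2, OSGIN1, TXNRD1, SRXN1 and KEAP1 lie within the broad centre.

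The targets thus did not move by a common factor. The 95% confidence interval of the log2 difference ran from -3.23 to -2.91 for HMOX1, from -1.89 to -1.57 for GCLM, from -1.36 to -1.09 for NQO1 and from -0.99 to -0.69 for GCLC. Those of NFE2L2, TXNRD1 and OSGIN1 overlapped each other, at -0.57 to -0.29, -0.68 to -0.23 and -0.63 to -0.25. The interval of SRXN1, -0.34 to -0.03, overlapped these 3 as well. The targets' summed TPM, a length-scaled level with the same total in each library, was 1294 to 1425 in parental and 631 to 684 in resistant libraries. HMOX1 made up 21.7% to 22.5% of this sum in parental and 4.84% to 5.71% in resistant cells, whereas the share of TXNRD1 was 26.2% to 30.4% and 40.5% to 46.8%. The TPM of TXNRD1 itself was lower in resistant libraries, at 256 to 320 against 339 to 434. The sum and the shares rest in part on this TXNRD1 value, called uncertain above.

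The order of levels changed with it. In parental cells it ran NQO1, TXNRD1, HMOX1, NFE2L2, SRXN1, KEAP1, GCLC, GCLM and OSGIN1, and the libraries of neighbours overlapped only for SRXN1 with KEAP1 and GCLC with GCLM. In resistant cells it ran TXNRD1, NQO1, KEAP1, SRXN1, NFE2L2, HMOX1, GCLC, GCLM and OSGIN1. There the neighbours that overlapped were SRXN1 with NFE2L2 and GCLM with OSGIN1. HMOX1 moved from the third place to the sixth, and KEAP1 from the sixth to the third. The place of TXNRD1 rests on its uncertain value.

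The genes around KEAP1 were mostly higher too. Of 54 tested genes within 1 megabase of it, 48 were called higher and 1 lower, against 39.9% and 38.1% of all tested genes, and their median log2 difference was 0.81, above the 0.61 of KEAP1 itself. The single one lower was AP1M2, a clathrin adaptor subunit of epithelial cells, at -5.02, named after its value was seen. Within 5 megabases 168 of 219 were higher and 24 lower, with a median of 0.70, while the median over all 949 tested genes of chromosome 19 was 0.07. Of 7 tested neighbours of NFE2L2 within 1 megabase, 6 were called lower and 1 higher, with a median of -0.44 beside the -0.43 of NFE2L2. Within 3 megabases 12 of 19 were lower and 5 higher, with a median of -0.26, and within 5 megabases 19 of 27 and 5, with a median of -0.36. The median over all 775 tested genes of chromosome 2 was -0.21. Among the neighbours of NFE2L2, AGPS, a gene of ether lipid synthesis, was at a mean of 17.4 FPKM in parental and 11.9 FPKM in resistant cells. Its first bases overlap the annotated span of NFE2L2 on the other strand. The part of the chromosome region in the differences of KEAP1 and NFE2L2 was not tested.

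HMOX1 stood lowest among the genes around it. Of 11 tested genes within 1 megabase of HMOX1, 6 were higher and 4 lower, with a median of 0.25, and each of the 100 within 5 megabases had a higher log2 difference than HMOX1. Of 13 neighbours of GCLM within 1 megabase 9 were called lower and 3 higher, with a median of -0.29, and 1 lay below GCLM. Of 28 neighbours of NQO1 17 were lower and 5 higher, with a median of -0.34, and 3 lay below NQO1, the lowest at -6.40. The genes around GCLM and NQO1 were thus called lower more often than the 38.1% of all tested genes. Of 8 neighbours of GCLC 2 were lower and 3 higher, with a median of 0.01, and 1 lay below it. A gene with a large decrease lies below most genes anywhere, as the shares of all tested genes given above show. TXNRD1 lay below 13 of 14 neighbours (median 0.16). For OSGIN1, with 12 neighbours at a median of -0.32, and for SRXN1, with 14 at 0.28, the difference from the neighbours' median was -0.13 and -0.47. The distances of 3 and 5 megabases were chosen after values were seen.

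**Figure D4:**
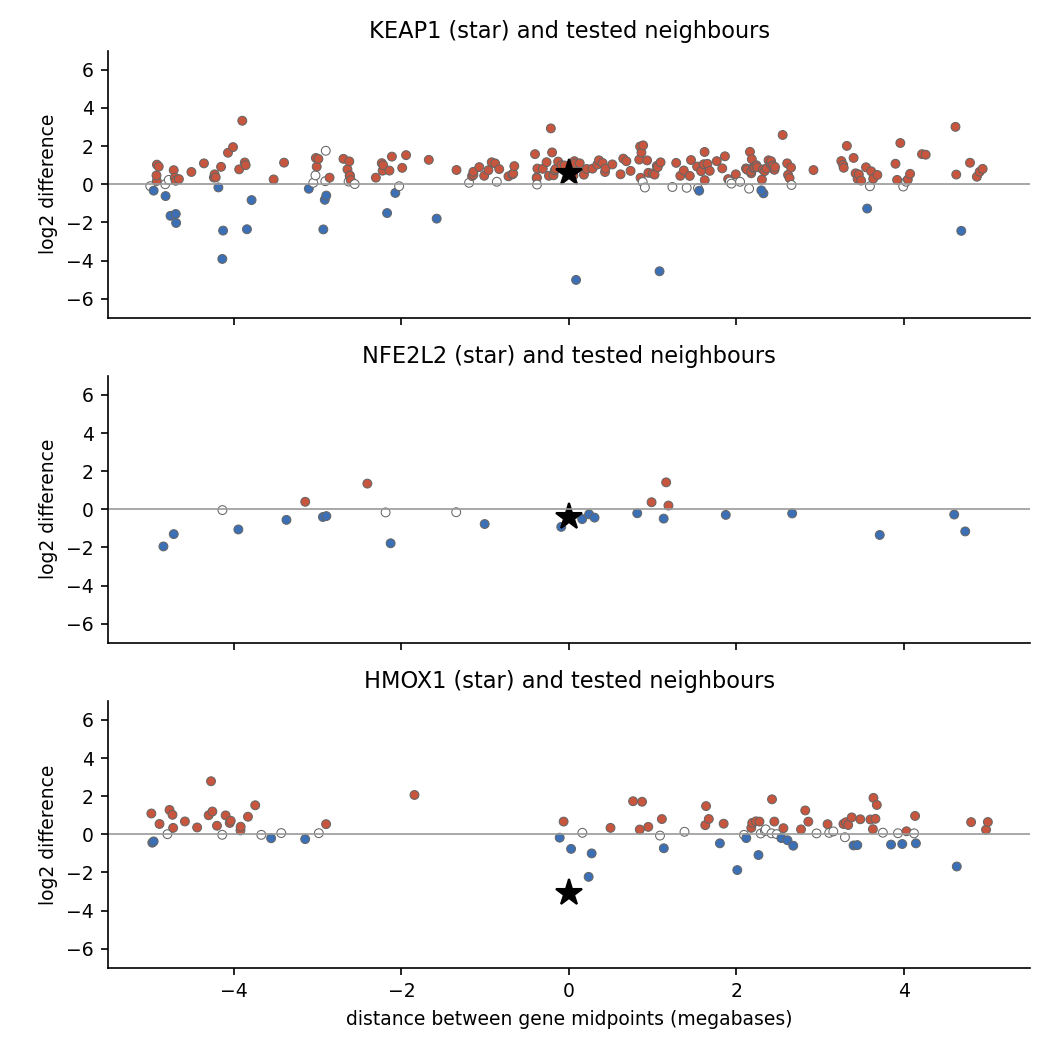
Difference in log2(FPKM + 1), H1975 OR minus H1975, of tested genes within 5 megabases of KEAP1, NFE2L2 and HMOX1, against the distance between gene midpoints in megabases. Red and blue points passed an FDR of 0.05 as higher and lower, white points did not, and the star is the named gene, which lies within the run of neighbours for KEAP1 and NFE2L2 and below them for HMOX1.

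Of 16 listed partners and regulators of NRF2 15 were tested, 6 were higher and 5 lower, near the 39.9% and 38.1% of all tested genes. Their median log2 difference was -0.01, beside 0.01 over all tested genes. BACH1, the repressor of HMOX1, had the largest increase. It was at 3.29, 3.16 and 3.39 FPKM in parental and 9.20, 9.35 and 10.4 FPKM in resistant libraries, a log2 difference of 1.32 ± 0.0683 (limma adjusted p = 2.5e-09). All 3 resistant values were thus well above the parental ones, opposite to HMOX1. The part of BACH1 in the difference of HMOX1 was not tested. The small MAF genes, which encode dimer partners of both NRF2 and BACH1, differed in direction, with 2 higher and 1 lower. MAFF rose from 6.19 ± 0.376 to 16.2 ± 1.45 FPKM and MAFK, named to complete the 3, from 13.6 ± 1.10 to 21.4 ± 1.49, while MAFG fell from 12.5 ± 0.334 to 8.19 ± 0.414. GSK3B, a kinase that primes NRF2 for KEAP1-independent degradation, fell from 18.4 ± 2.62 to 11.7 ± 0.710 FPKM. SQSTM1, the autophagy receptor p62, which sequesters KEAP1 and is itself an NRF2 target, did not pass, at 158 ± 5.45 and 157 ± 14.7 FPKM (log2 difference -0.01, limma adjusted p = 0.92). SQSTM1 was named after its values were seen.

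Relatives of the factor and of the enzymes went both ways. Of the cap'n'collar relatives, 3 of 3 were tested, 2 were higher and 0 lower. NFE2L1, which drives proteasome genes and binds similar elements, rose from 28.7 ± 1.32 to 107 ± 5.81 FPKM, a log2 difference of 1.86 ± 0.0647 (limma adjusted p = 6.6e-11). In parental cells it stood below NFE2L2, at 40.2 FPKM, and in resistant cells above it, at 29.6 FPKM. Among 5 paralogs of the targets 1 was higher and 2 were lower, beside 39.9% and 38.1% of all tested genes. NQO2, a quinone reductase that does not use NAD(P)H efficiently, rose from 26.2 ± 0.548 to 73.1 ± 2.31 FPKM, opposite to NQO1. HMOX2, the constitutive heme oxygenase, fell from 62.8 ± 2.97 to 40.6 ± 3.48 FPKM, and OSGIN2 fell from 15.3 ± 0.949 to 6.43 ± 0.429 FPKM, both in the direction of their member. HMOX1 RNA was above HMOX2 RNA in parental cells and below it in resistant cells, in every library.

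Beyond glutamate-cysteine ligase, genes of glutathione supply went both ways. Of 12 listed 11 were tested, 7 were higher and 4 lower, beside 39.9% and 38.1% of all tested genes, with a median of 0.42. The thiol-disulfide oxidoreductase gene GLRX rose from 4.46 ± 0.314 to 22.0 ± 1.48 FPKM, and CHAC1, which degrades glutathione, from 0.759 ± 0.232 to 4.65 ± 0.581. GGT1, which breaks down extracellular glutathione, fell from 4.65 ± 0.325 to 0.852 ± 0.0509 FPKM, and GGCT, a cyclotransferase of the same cycle, from 100.1 ± 0.972 to 38.7 ± 1.12. The others that fell were GSR, glutathione reductase, at a log2 difference of -0.66, and MGST1, a microsomal glutathione transferase, at -0.29, named to complete the 4. The cystine transporter gene SLC7A11, a target of both NRF2 and ATF4 chosen with its values known, rose from 3.22 ± 0.359 to 5.02 ± 0.705 FPKM. In the thioredoxin and peroxiredoxin list 3 of 9 were higher and 1 was lower, beside 39.9% and 38.1% of all tested genes. The gene called lower was TXN, the substrate of TXNRD1, from 301 ± 7.35 to 190 ± 12.2 FPKM.

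In the NADPH supply list the called genes were lower, as most members were. Of 7 tested genes 5 were lower and 0 higher, beside 38.1% and 39.9% of all tested genes, with a median of -0.66. IDH1, the cytosolic isocitrate dehydrogenase, fell from 74.7 ± 6.41 to 27.2 ± 2.30 FPKM, a log2 difference of -1.42 ± 0.0794 (limma adjusted p = 4.9e-09).

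Of 12 listed heme and iron genes 10 were tested, 5 were higher and 2 lower, near the 39.9% of all tested genes for higher calls and under the 38.1% for lower ones, with a median of 0.21. FTL, the ferritin light chain and also known as an NRF2 target, was at 438, 415 and 428 FPKM in parental and 1156, 1227 and 1179 FPKM in resistant libraries, a log2 difference of 1.47 ± 0.0638 (limma adjusted p = 4.8e-10). SLC48A1, a heme transporter gene, rose from 2.61 ± 0.566 to 5.25 ± 0.343 FPKM. BLVRA, biliverdin reductase, which acts on the product of HMOX1, fell from 40.1 ± 1.76 to 34.9 ± 2.64 FPKM, and NCOA4, the ferritin autophagy receptor, from 73.0 ± 1.32 to 65.8 ± 2.30. In the carbonyl and drug metabolism list 7 of 13 tested genes were higher and 5 lower, beside 39.9% and 38.1% of all tested genes. AKR1B10, an aldo-keto reductase and NRF2 target, fell from 3.51 ± 0.292 to 0.300 ± 0.192 FPKM and GSTP1, a glutathione transferase, from 765 ± 58.8 to 470 ± 19.5. AKR1C3 rose from 0.242 ± 0.0726 to 33.3 ± 5.11 FPKM and AKR1C1 from 0.463 ± 0.0127 to 8.84 ± 3.29. Both are also listed as NRF2 targets, and theirs were the largest increases in the list of other targets below. Related genes of this family can share reads. In a list of other NRF2 targets, which repeats some of these genes, 16 of 22 were tested. Of these 7 were higher and 8 lower, beside 39.9% and 38.1% of all tested genes, with a median of -0.07.

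**Figure D5:**
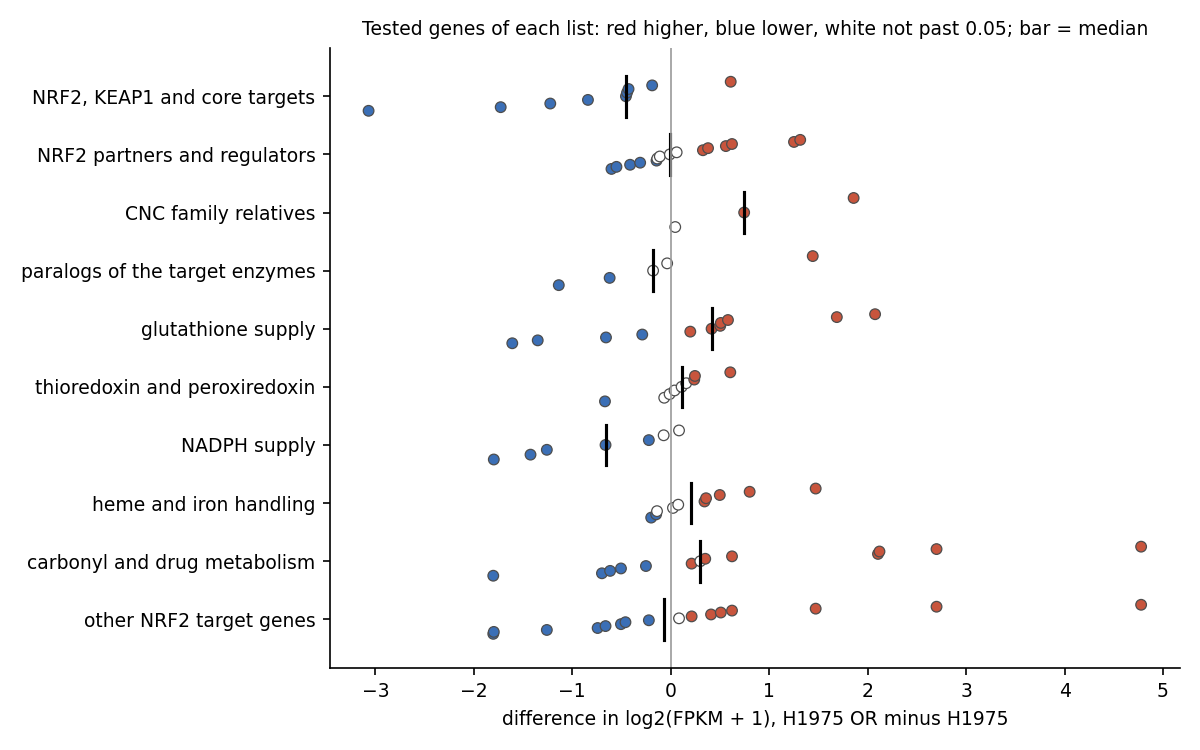
Difference in log2(FPKM + 1), H1975 OR minus H1975 (horizontal axis), of each tested gene in the 9 members and in 9 lists of related genes, with the list median as a black bar. Red and blue points passed an FDR of 0.05 as higher and lower and white points did not, and medians range from -0.66 for NADPH supply to 0.75 for the cap'n'collar relatives.

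With 6 libraries in 2 separate groups, likeness of pattern mostly reflects which genes differ between the groups. Among 9403 tested genes that averaged 5 FPKM or more in 1 group, those with the highest Pearson correlation to NFE2L2 on log2(FPKM + 1) were CHD2 (0.9999), HEATR5B (0.9991) and UBE2W (0.9988). For HMOX1 they were CT45A2, NAA10 and AFG3L2, each at 0.9999. A correlation above 0.95 was reached by 1842 genes for NFE2L2 and 2587 for HMOX1, so these names single out little.

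Of facts of the whole series, the mapped sequence estimated from the deposited coverage was 9.72 to 14.7 gigabases per library, and depth in reads is unknown. Epithelial markers were 5 of 5 lower, beside 38.1% of all tested genes. Their summed level was 1671 to 1870 FPKM in parental and 636 to 699 FPKM in resistant libraries. Of them EPCAM fell from 211 ± 15.6 to 1.02 ± 0.237 FPKM and KRT19 from 574 ± 71.8 to 4.58 ± 0.741. The rest are named to complete the list. CDH1 fell from 68.6 ± 3.72 to 0.0248 ± 0.0135 FPKM. KRT8 and KRT18 fell less, from 508 ± 34.0 to 384 ± 19.5 and from 431 ± 15.2 to 274 ± 13.2 FPKM. KRT8 and KRT18 made up most of the resistant sum. Of 5 lung adenocarcinoma markers 2 were tested, 0 were higher and 1 lower, beside 39.9% and 38.1% of all tested genes. The lung lineage factor gene NKX2-1 fell from 26.7 ± 2.72 FPKM in parental cells and was listed at 0 in each resistant library. The other lung adenocarcinoma markers are named to complete the 5. MUC1 was not called, and NAPSA, SFTPB and SFTPC averaged under 1 FPKM in both groups. Leukocyte and macrophage markers, named because macrophages are rich in HMOX1, summed to 7.78 to 8.57 FPKM in parental and 26.2 to 32.5 FPKM in resistant libraries. Of the 8, 5 were under 1 FPKM in every library, PTPRC, LYZ and CD163 among them, and CD3E was listed at 0 throughout. Of 3 tested, 2 were higher and 1 lower, beside 39.9% and 38.1% of all tested genes, with a median log2 difference of 0.996. CSF1R fell from 4.54 ± 0.196 to 0.373 ± 0.0290 FPKM. CD14 rose from 2.67 ± 0.646 to 26.8 ± 3.05 FPKM, and MARCO was also called higher. CSF1R was the largest part of the parental sum and CD14 of the resistant one. Of 6 fibroblast markers 5 were under 1 FPKM in every library, and COL1A1 rose from 2.45 ± 0.249 to 15.8 ± 1.89 FPKM. The 4 erythroid markers were under 1 FPKM throughout, and of 2 endothelial markers found CDH5 was at 0.503 ± 0.0978 and 1.06 ± 0.134 FPKM. The part of such markers in the members' differences was not tested. In bulk RNA, fewer cells with a transcript and less of it per cell cannot be told apart.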

How the data were processed

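The authors deposited FPKM in a series table with 1 column per library, and, per the file headers, coverage, FPKM and TPM in a file for each library. Per the submitters' processing notes reads were mapped to GRCh37, and DESeq is named with no role. Not given in the sources used here: aligner, quantification tool, annotation and use of strand. The coverage signal in the deposited files, divided by FPKM, served only to estimate mapped gigabases. Between 1 and 4 genes per library differed by over 0.00001 FPKM between table and library file.

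The test was limma 3.58.1 (R 4.3.3), two-sided, applied to log2(FPKM + 1) of the 12107 genes that averaged 1 FPKM or more in a group. The model held group alone, with trend and robust options on, and p-values were adjusted by Benjamini-Hochberg over those genes. Differences on this scale understate changes of low genes. Ratios within libraries were compared by exact permutation in scipy 1.17.1. The fit was tested on simulated data with far fewer changed genes than were called here, so that run does not measure its error rate in these data. Members and lists were chosen with earlier results of these data known. Named genes are the 9 members, the 2 largest called changes per list and direction, and the 3 most alike to NFE2L2 and HMOX1; not all are printed. Others are marked. The list genes LUCAT1, NMRAL2P and PECAM1 were not matched by symbol and are not analysed here. Coordinates of genes are GRCh37 from the deposited files, and those of promoter sites are GRCh38.p14 from RefSeq.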

Additional observations from a re-analysis of the deposited data

How the results depend on the processing

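Each member's log2 difference was recomputed under 14 alternatives: pseudocounts of 0.1 and 0.5 FPKM, no filter, a filter of 1 FPKM in both groups, TPM, median-of-ratios scaling, limma without trend or robust moderation, a replicate block, and each of the 6 libraries left out in turn. Of the 126 recomputed differences 122 kept direction and call, and the other 4 were the SRXN1 values given above, which kept direction. HMOX1 ranged from -3.14 to -3.01, GCLM from -1.93 to -1.68, KEAP1 from 0.56 to 0.66 and NFE2L2 from -0.47 to -0.40. No scaling moved the median of all genes by 0.05 or more. With the replicate block 9422 genes were called against 9448 without it, and the members' calls were the same, 1 higher and 8 lower. The correlations of same-numbered libraries' deviations were -0.14, 0.08 and 0.10, so the numbers did not pair the libraries. Leaving out a library gave 8985 to 9261 called genes. Without any filter the called genes numbered 11014. The 2 ratios were recomputed only from the library files, with 1 FPKM added before the ratio, and with each library left out in turn. In these runs the difference in the log2 ratio of NFE2L2 to KEAP1 kept its direction, from -1.16 to -0.99. That of GCLC to GCLM did too, from 0.89 with 1 FPKM added to 1.09.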
